A study of Arabidopsis thaliana with 12 samples.

Results

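Abundant genes whose counts stayed nearly level in every sample were examined in Arabidopsis thaliana leaves. A gene belonged to the set when its counts-per-million (CPM, its count relative to all gene counts of the library) were 50 or more in all 12 samples and its highest CPM was at most 1.2 times its lowest. The rule was met by 589 of the 2629 AGI genes that reached 50 CPM everywhere, out of 32833 AGI genes in the count tables. The members were chosen by their CPM in these same 12 samples, so their levels and contrasts are a description and carry no test.

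RNA came from leaf 13 of plants 5 weeks old, grown with 10 h of light. The groups were isi1-2 wounded, isi1-2 unwounded, WT wounded and WT unwounded, each with 3 replicates of 2 pooled plants. WT is the accession Col-0, and isi1-2 is the T-DNA insertion line SALK_014032 of the gene ISI1 in that background, so the mutation is represented by 1 line. In wounded plants much of the tip side of leaf 8 had been crushed with forceps 1 h before leaf 13 was taken. Libraries were stranded poly-A mRNA libraries read from 1 end.

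Total gene counts were 23307790 to 30747778 per library. ISI1 had 1 to 4 counts in the isi1-2 libraries, against 253 to 337 in the WT libraries. The leaf gene RBCS1A, which encodes a small subunit of Rubisco, had 14790 to 19940 CPM, while the root hair gene RHD6 and the seed storage gene CRU3 had 0 counts in every library and the floral gene AG reached 1.93 CPM. The study calls its replicates biological, and p-values measure the spread between these pools of plants.

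A messenger RNA can keep a constant level because its gene serves tasks that each cell needs at all times, such as protein turnover, organelle translation, respiration and vesicle traffic. Such genes are often called housekeeping genes, and a few of them serve as reference genes to which quantitative PCR results are scaled. In leaves, wounding of 1 leaf sends electrical, calcium and hydraulic signals to connected leaves, where jasmonate accumulates and many genes respond within the hour.

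The 589 genes spanned mean levels of 52.0 to 4166 CPM, with a median of 107 CPM. Their highest over lowest CPM ran from 1.06 to 1.199, with a median of 1.155, while the 2040 other abundant genes had a median of 1.42 and a maximum of 25.7. The coefficient of variation over 12 samples had a median of 4.44% among the 589 genes, and counting error alone would give a median of 1.89% at their depth. The lowest count of any of them in any library was 1167, and counting error alone would give at most 2.71% for any of the 589. Some of the steadiest genes varied little beyond counting error, such as SUB1 (2.43%, against 2.36% from counting), while VAR2 had 3.01%, against 0.60%. These bounds on counting error do not cover duplicate reads, since the reads carried no molecular identifiers.

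The 20 genes with the lowest ratio differed by less than 10% between their extreme samples. The steadiest was PTAC4 (AT1G65260, chr1:24236088-24240728 on TAIR10.1), also known as VIPP1, which builds and maintains thylakoid membranes. PTAC4 had 253, 256 and 264 CPM in isi1-2 wounded leaves and 258, 254 and 256 CPM in isi1-2 unwounded leaves. It had 259, 255 and 261 CPM in WT wounded leaves and 260.0, 249.7 and 259 CPM in WT unwounded leaves. The 4 groups overlapped, and the highest sample was 1.06 times the lowest.

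**Figure D1:**
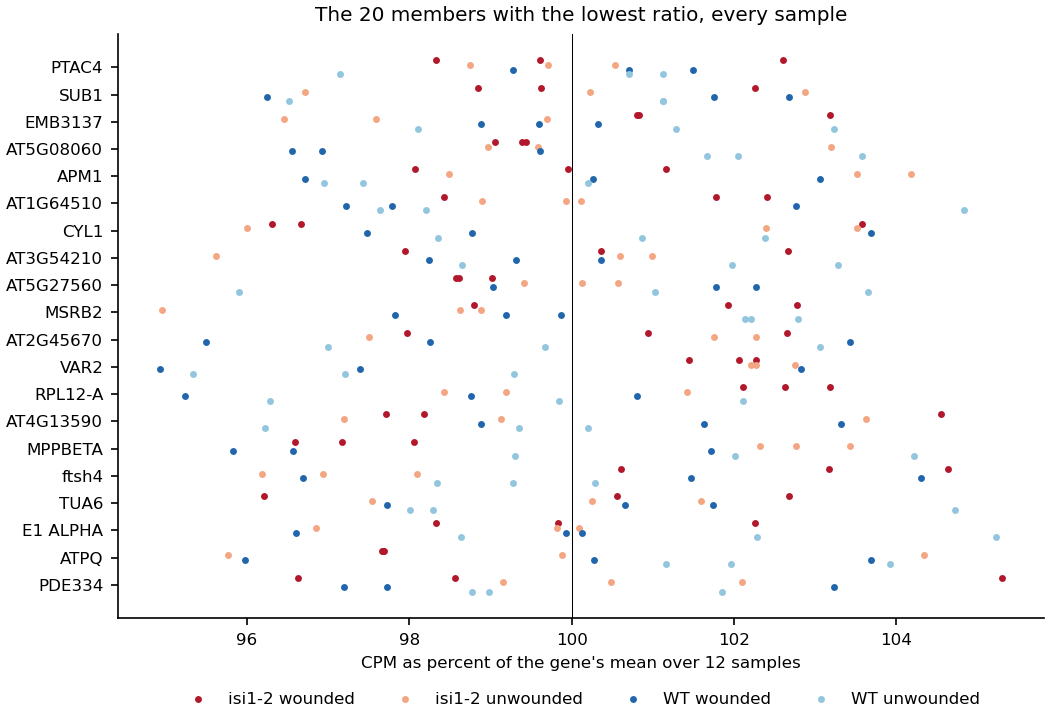
The 20 members with the lowest ratio of highest to lowest CPM, from top to bottom, with each gene's CPM in each of the 12 samples as a percent of its own mean (x axis). Colours mark the 4 groups of 3 samples; PTAC4, with a ratio of 1.06, has the narrowest spread, and the colours are intermixed for most genes.

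Next came SUB1 (AT4G08810, ratio 1.07), annotated as a calcium ion binding protein, and EMB3137 (AT5G14320, ratio 1.07), the plastid ribosomal protein S13. EMB3137 had 551, 564 and 551 CPM in isi1-2 wounded leaves and 527, 533 and 544 CPM in isi1-2 unwounded leaves. The WT values were 544, 540.0 and 548 CPM in wounded leaves and 564, 553 and 536 CPM in unwounded leaves. The 3 isi1-2 wounded samples all lay above the 3 isi1-2 unwounded samples, whereas the WT groups overlapped.

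Stretches of 120 bases upstream of the annotated start are shown for the steadiest genes, as examples of promoters with and without the short motifs counted further on, and for ACT8 as the 1 listed reference gene in the set. They were read from RefSeq TAIR10.1, 5′ to 3′ toward the gene, and no annotated gene overlaps them. Capitals mark matches on either strand to a TATA motif (TATAAA or TATATA), a site II element (TGGGCC or TGGGCT) or the G-box core (CACGTG).
PTAC4, chr1:24235968-24236087, plus strand: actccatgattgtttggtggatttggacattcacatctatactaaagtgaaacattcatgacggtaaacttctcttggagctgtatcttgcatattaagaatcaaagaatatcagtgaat
EMB3137, chr5:4618982-4619101, minus strand: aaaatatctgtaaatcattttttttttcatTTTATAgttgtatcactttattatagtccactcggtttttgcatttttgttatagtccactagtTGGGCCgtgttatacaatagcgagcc
AT5G08060, chr5:2580302-2580421, plus strand: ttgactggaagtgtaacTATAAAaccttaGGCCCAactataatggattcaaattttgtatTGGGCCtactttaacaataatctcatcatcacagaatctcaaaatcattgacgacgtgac
ftsh4, chr2:11135466-11135585, minus strand: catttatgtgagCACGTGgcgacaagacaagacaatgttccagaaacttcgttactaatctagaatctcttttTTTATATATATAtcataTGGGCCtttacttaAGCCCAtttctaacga
ACT8, chr1:18215680-18215799, plus strand: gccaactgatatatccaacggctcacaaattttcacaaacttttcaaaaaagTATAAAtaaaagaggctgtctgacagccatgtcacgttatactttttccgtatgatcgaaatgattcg

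In these stretches PTAC4 holds none of the marked motifs, and the windows of SUB1, APM1, VAR2 and RPL12-A, not shown, hold none either. EMB3137 holds TGGGCC with its first base 26 bases before the start, AT5G08060 holds it 91 and 60 bases before, and ftsh4 holds TGGGCC and TGGGCT 30 and 16 bases before. ACT8 holds TATAAA 68 bases before its start.

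AT5G08060 (ratio 1.07), whose product RefSeq names furry, is an example of a member in which groups still separated. It had 61.7, 61.5 and 61.7 CPM in isi1-2 wounded leaves and 61.8, 61.5 and 64.1 CPM in isi1-2 unwounded leaves, against 60.2, 61.9 and 60.0 CPM in WT wounded leaves and 64.3, 63.1 and 63.4 CPM in WT unwounded leaves. All 3 WT wounded samples lay below all 3 WT unwounded samples, within a range of 1.07-fold. The coefficient of variation of AT5G08060 over 12 samples was 2.22%, and counting error alone would give 2.48%.

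Of the remaining genes of the 20, those for plastid proteins were the ribosomal proteins of AT1G64510 (S6), AT3G54210 (L17) and RPL12-A, the thylakoid protease VAR2 (FtsH2), which removes damaged photosystem II protein, the methionine sulfoxide reductase MSRB2 and PDE334, a subunit of the chloroplast ATP synthase. Those for mitochondrial proteins were MPPBETA, a subunit of the processing peptidase that removes import signals, the inner membrane protease ftsh4, the pyruvate dehydrogenase subunit E1 ALPHA and ATPQ, the d chain of ATP synthase. TUA6, an alpha-tubulin, APM1, an aminopeptidase, and CYL1, an alpha-N-acetylglucosaminidase, were also among them, as were AT5G27560, AT2G45670 and AT4G13590.

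VAR2 had 1072, 1065 and 1074 CPM in isi1-2 wounded leaves and 1073, 1074 and 1079 CPM in isi1-2 unwounded leaves. In WT it had 1080, 1023 and 997 CPM in wounded leaves and 1021, 1001 and 1043 CPM in unwounded leaves. The isi1-2 samples lay within 1065 to 1079 CPM, and 5 of the 6 WT samples lay below that range. TUA6 had 617, 645 and 659 CPM in isi1-2 wounded leaves, 626, 643 and 652 CPM in isi1-2 unwounded leaves, 627, 653 and 646 CPM in WT wounded leaves and 631, 672 and 629 CPM in WT unwounded leaves. All 4 groups of TUA6 overlapped. Its sequence is nearly identical to that of other alpha-tubulin genes, so the assignment of its reads is uncertain.

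The members that took the most counts worked in photosynthesis and plastid metabolism. PSAL, subunit L of photosystem I, averaged 4166 CPM, and its 3875 CPM per kilobase of exon was the highest of the 589 genes. AT3G60750, a transketolase of the Calvin cycle, averaged 2489 CPM, and PGK1, the phosphoglycerate kinase of the same cycle, averaged 1866 CPM. GS2, the plastid glutamine synthetase, averaged 1801 CPM, and CLPC1, the chaperone of the plastid Clp protease, averaged 1723 CPM.

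PSAL was just inside the bound, with a ratio of 1.199. It had 4228, 3960 and 3928 CPM in isi1-2 wounded leaves and 4099, 4157 and 4531 CPM in isi1-2 unwounded leaves. The WT values were 4066, 3781 and 3865 CPM in wounded leaves and 4466, 4416 and 4494 CPM in unwounded leaves. The WT groups did not overlap, and the wounded samples were the lower ones. GS2 had 1678, 1736 and 1788 CPM in isi1-2 wounded leaves and 1899, 1930 and 1889 CPM in isi1-2 unwounded leaves, against 1818, 1769 and 1724 CPM in WT wounded leaves and 1752, 1811 and 1818 CPM in WT unwounded leaves. For GS2 the isi1-2 wounded samples were all below the isi1-2 unwounded ones, and the WT groups overlapped.

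The bound cut through a continuous distribution. Of the 2629 abundant genes, 33 had a ratio of at most 1.1, 555 lay above 1.2 and up to 1.3, 680 above 1.3 and up to 1.5, 522 above 1.5 and up to 2, 245 above 2 and up to 5, and 38 above 5. Just inside the ratio bound were DWF1, a sterol synthesis enzyme, at 1.199, NFU1, a plastid iron-sulphur scaffold, at 1.1995, and AT2G35490, a protein of the fibrillin family, at 1.1995. Just outside were PLC2, a phospholipase C, at 1.2002, AT5G27970 at 1.2004 and AT5G19590 at 1.201. At the level bound, AT3G45190 (lowest sample 50.02 CPM) and HRS1, a histidyl-tRNA synthetase (50.07 CPM), were just inside, while PREP2, a presequence protease (49.81 CPM), and AT2G45620 (49.81 CPM) were just outside.

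**Figure D2:**
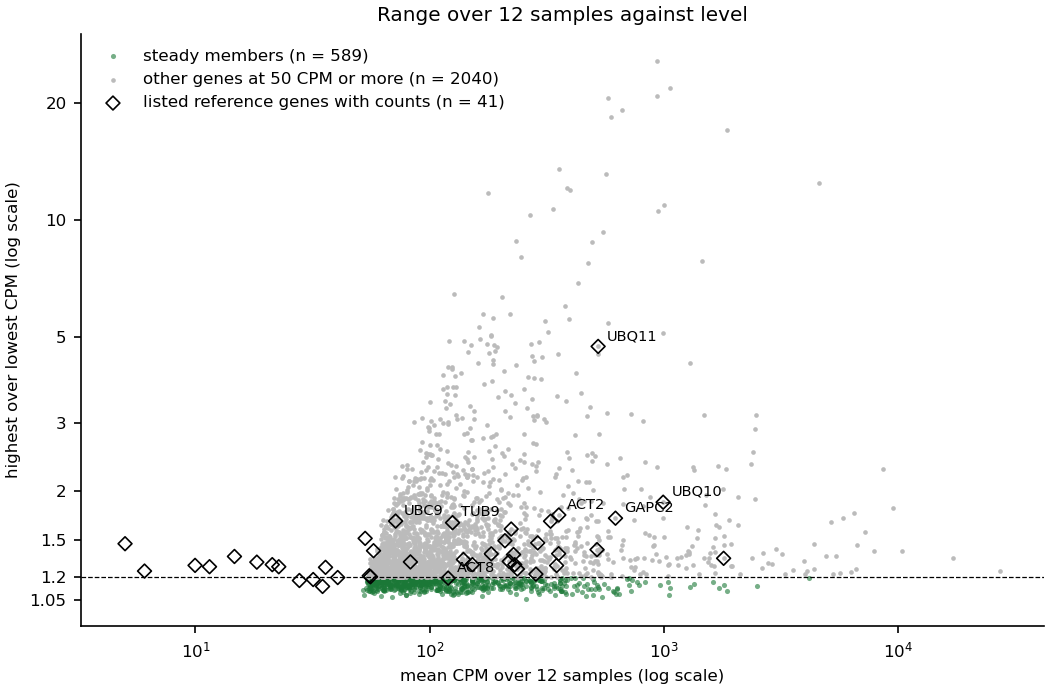
Mean CPM over 12 samples (x axis, log scale) against the ratio of highest to lowest CPM (y axis, log scale) for the 589 steady members, the 2040 other genes at 50 CPM or more, and the listed reference genes that had counts. The dashed line is the bound of 1.2; ACT8 is the only reference gene that is a member, and UBQ11 has the highest ratio of the reference genes, at 4.72.

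Steady genes were found in each bin of mean level. They made up 24.8% of the abundant genes with a mean of 50 to 100 CPM, 19.4% of those from 100 to 200 CPM, and 25.2% of those from 200 to 500 CPM. Above 500 CPM they were 20.9% of the genes in the next bin and 10.7% in the bin of highest levels. They lay on all 5 nuclear chromosomes, where they were 21.2% to 24.5% of the abundant genes. All 589 are annotated as protein-coding. They took 10.9% to 11.4% of all gene counts in each library.

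By product name, the classes with the largest share of steady genes were proteasome subunits (16 of 24 abundant genes, 66.7%), proton pumps (12 of 23, 52.2%), mitochondrial proteins (17 of 38, 44.7%) and membrane traffic (24 of 67, 35.8%). Over all abundant genes the share was 22.4%. Among the classes with a named function, the lowest shares were those of transporters (11 of 63, 17.5%), ribosomal proteins (28 of 157, 17.8%) and kinases and phosphatases (33 of 168, 19.6%). A further 154 members were other enzymes and 163 had another or no described function. The name patterns were refined after the members' names had been read, so these shares are a description of the set.

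The proteasome degrades proteins tagged with ubiquitin; its 20S core holds the cutting sites and its 19S regulator recognises and unfolds the tagged proteins. Of 24 listed genes of the 20S core, 10 were abundant and 9 of these were members. They were the alpha subunits PAA1 (AT5G35590), PAC1, PAD1, PAF1 and PAG1 and the beta subunits PBA1, PBE1, PBF1 and PBG1. Among the abundant core genes PBB1, at a ratio of 1.31, was the exception. Listed core genes that fell under 50 CPM in a sample are not in that count. Of these, only PAA2 and PBB2 had a ratio within 1.2. PBC2 ran from 28.4 to 70.1 CPM, a ratio of 2.47, and AT4G15165 from 0.69 to 2.23 CPM, a ratio of 3.21. Counting error was not taken out of these ratios. PBF1 had 76.1, 75.9 and 80.03 CPM in isi1-2 wounded leaves, 78.4, 83.0 and 77.8 CPM in isi1-2 unwounded leaves, 81.6, 78.9 and 76.2 CPM in WT wounded leaves and 74.4, 78.0 and 76.4 CPM in WT unwounded leaves. All 4 groups of PBF1 overlapped.

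Of 27 listed genes of the 19S regulator, 15 were abundant and 8 were members, among them the ATPases RPT2a, RPT5A and RPT6A and the ubiquitin receptor RPN10. The other 7 abundant 19S genes lay close outside the bound, between ratios of 1.21 and 1.29. The upstream machinery was represented in part. By product name, 12 of 42 abundant genes of the ubiquitin and SUMO system were members (28.6%), against 66.7% for proteasome subunits. Members included the ubiquitin-specific proteases UBP12 (ratio 1.13) and UBP13 (1.11) and the SUMO ligase SIZ1 (1.19). The cullins CUL1 (1.14), CUL3 (1.14) and CUL4 (1.12), which form the scaffolds of ubiquitin ligases, were members too. The polyubiquitin genes UBQ10 (1.87) and UBQ11 (4.72) and the ubiquitin-conjugating enzyme genes UBC9 (1.68) and UBC10 (1.29) lay outside the bound.

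The vacuolar proton ATPase acidifies the vacuole and endosomes; a V1 part splits ATP and a V0 part carries protons across the membrane. Of its 28 listed genes, 19 were abundant and 12 were members. The members held the catalytic subunit VHA-A (486 CPM, ratio 1.12), the B subunits VAB1 and VAB3, and the membrane subunits VHA-A2, VHA-A3 and VHA-C3. VHA-A had 479, 476 and 506 CPM in isi1-2 wounded leaves and 512, 505 and 493 CPM in isi1-2 unwounded leaves, against 488, 493 and 489 CPM in WT wounded leaves and 473, 458 and 465 CPM in WT unwounded leaves. In WT the wounded samples of VHA-A were all above the unwounded ones, and in isi1-2 the groups overlapped. Among the abundant genes outside the bound, AVA-P2, a proteolipid of the V0 ring, had the highest ratio, 1.54. Listed genes that fell under 50 CPM in a sample are not in that comparison. Of these, VHA-E3 ran from 6.25 to 124 CPM, a ratio of 19.8, while VHA-A1 had a ratio of 1.32.

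Mitochondrial members covered several steps of respiration. They included the complex I genes EMB1467 (ratio 1.12), CI51 (1.13) and AT5G11770 (1.11), the citrate cycle enzymes ATCS (citrate synthase, 1.16) and IDH1 (isocitrate dehydrogenase, 1.12), and the ATP synthase genes ATPQ (1.09), ATP3 (1.16) and ATP5 (1.17). Vesicle traffic was represented by the retromer subunit VPS35C (1.11), the small GTPase ARF1A1C (1.12), the Rab regulator GDI2 (1.12), the exocyst subunit SEC3A (1.14), and the coat protein ERMO2 (a Sec24).

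The plastid translation machinery formed a large block. Plastids translate their own messages on ribosomes of bacterial type, and most proteins of those ribosomes are encoded in the nucleus. Of 42 listed nuclear genes for plastid ribosomal proteins, 40 were abundant and 28 were members, with mean levels of 169 to 829 CPM. Besides those named above, the lowest ratios were those of RPL9 (1.09), PSRP2 (1.098) and RPS1 (1.105). The 12 abundant genes outside the bound reached a ratio of at most 1.41, for PSRP6.

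Ribosomal protein genes outside that list stood at higher ratios. Of 114 abundant genes, RPS18C was a member (ratio 1.18), and the median ratio of the 114 was 1.54, against 1.16 for the 40 plastid genes. By edgeR's quasi-likelihood test with Benjamini-Hochberg adjustment over all genes, with calls at an adjusted p below 0.05, 97 of the 114 genes fell and 0 rose on wounding in isi1-2, and 59 fell and 1 rose in WT. Their median log2 change was -0.34 in isi1-2 and -0.20 in WT, against medians of -0.00 in both for all genes tested. Wounding called 50.9% of all genes tested in isi1-2 and 46.9% in WT. Whether the response of the list differed between the genotypes was not tested. The list is what remained of the ribosomal class by product name once the plastid list was taken out. It was drawn up after the members were known, and 1 of its genes had passed the ratio bound, so its calls are a description.

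For the 40 plastid ribosomal protein genes the same test gave 11 higher and 0 lower on wounding in isi1-2, and 8 higher and 2 lower in WT, with median log2 changes of 0.12 and 0.05. That list was put together after the members were known and 28 of its genes had passed the ratio bound, so nothing is read from its calls. Scaling also moves it: in WT, 25 of the 40 were lower in wounded leaves when scaled by total counts and 24 were higher when scaled by TMM. Of the 114 other genes, 114 were lower in wounded isi1-2 leaves by total counts, 113 by TMM and 113 by DESeq2 factors. In WT 110 were lower and 4 higher by total counts, 105 lower and 9 higher by TMM, and 103 lower and 11 higher by DESeq2 factors.

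Summed over genes, the 114 took 1.43%, 1.504% and 1.44% of all counts in isi1-2 wounded leaves, against 1.98%, 1.96% and 1.94% in isi1-2 unwounded leaves. In WT they took 1.59%, 1.60% and 1.67% in wounded leaves, against 1.797%, 2.16% and 1.93% in unwounded leaves. Wounded and unwounded samples did not overlap in either genotype. The 40 plastid genes took 1.70% to 1.82% in all 12 samples. In whole leaves, fewer cells of a type and less RNA per cell cannot be told apart.

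**Figure D3:**
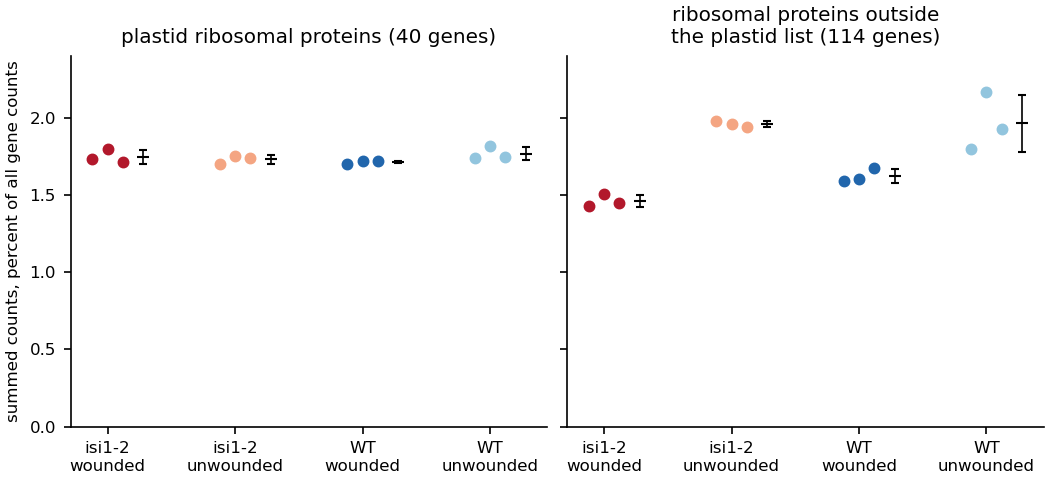
Summed counts of the abundant plastid ribosomal protein genes (left) and of the other abundant ribosomal protein genes (right) as percent of all gene counts (y axis from 0), with 1 point per sample and the mean with SD of 3 samples beside them. The plastid list stays between 1.70% and 1.82%, and the other list is lower in wounded than in unwounded leaves in both genotypes.

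Plastid proteases made up another group. Of 29 listed genes 25 were abundant and 16 were members: the thylakoid FtsH proteases VAR1 (608 CPM, ratio 1.11), VAR2 and FTSH1, the stromal Clp subunits CLPP4, CLPP6, CLP2 (CLPR2), CLPR4 and CLPC1, the lumenal and stromal proteases DEG1, DEG2, DEG5 and DEG8, and SPP, which removes transit peptides, among others. ERD1, a Clp chaperone known for induction by drying and senescence, had the highest ratio of the 25, at 2.07. The enzymes that feed plastid fatty acid synthesis followed the same split. Of 9 abundant genes for plastid pyruvate dehydrogenase and acetyl-CoA carboxylase, 7 were members, among them CAC2 (1.16) and CAC3 (1.18), while AT2G34590 had a ratio of 3.08.

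The plastid isoprenoid (MEP) pathway, which supplies carotenoids and the phytol of chlorophyll, was divided. HDS (630 CPM, ratio 1.12) and CDPMEK (60.5 CPM, ratio 1.14) were members, whereas CLA1, the entry enzyme, had a ratio of 2.36 and HDR, the last enzyme, a ratio of 1.72. DXR (1.21) and ISPF (1.22) lay just outside the bound.

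**Figure D4:**
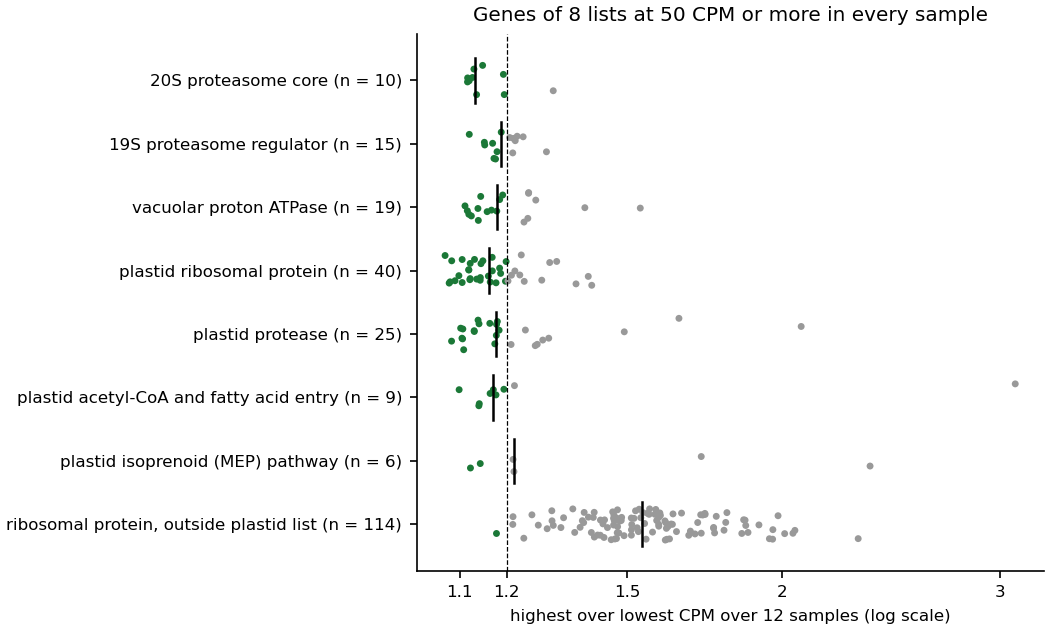
Ratio of highest to lowest CPM over 12 samples (x axis, log scale) for each abundant gene of 8 lists (y axis). Green points are members, grey points are not, the black bar is the median of the list and the dashed line is 1.2; the median is 1.13 for the 20S core and 1.54 for ribosomal proteins outside the plastid list.

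Members with antioxidant or redox roles in plastids included the peroxiredoxins 2-Cys Prx B (ratio 1.09) and PRXQ (1.13), the thioredoxins TRX-M4 (1.12), THM1 (1.14) and THX (1.16), and TAPX, the thylakoid ascorbate peroxidase (1.147). In the nucleus, members included HAC1, a histone acetyltransferase (1.11), NRPB2, a subunit of RNA polymerase II (1.19), and the spliceosome genes U1-70K (1.18) and ATU2AF65A (1.18). EIN2, the membrane protein through which ethylene signals pass, was a member as well (1.17). These were named after their values had been seen.

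Within a group of 3 samples the standard deviation of a member was typically 3.63% of its mean, and the highest group mean was typically 1.07 times the lowest. For the other abundant genes these medians were 5.96% and 1.26. In the comparison of wounded with unwounded isi1-2 leaves, all 3 wounded samples lay above all 3 unwounded ones for 52 members and below them for 121, and the groups overlapped for 416. In WT these numbers were 70, 122 and 397. The groups thus did not overlap for 29.4% of members in isi1-2 and 32.6% in WT, where the same measure gave 59.5% and 57.1% over all genes tested. Between isi1-2 and WT the numbers were 56, 48 and 485 in unwounded plants and 49, 46 and 494 in wounded plants. That is 17.7% and 16.1% of members without overlap, against 16.3% and 20.4% of all genes tested. The rule had used the same samples, and nothing is read from these shares.

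The fit called 101 members on wounding in isi1-2 and 83 in WT, all of them higher in wounded leaves, against 50.9% and 46.9% of all genes, and 0 members for genotype in either state, against 0.128% of all genes in unwounded plants and 2.39% in wounded plants. For genotype, 33 members in unwounded plants and 34 in wounded plants had an unadjusted edgeR p below 0.05, and DESeq2 called 1 in each. The fit used TMM scaling, and the rule used total counts; nothing is read from these counts, because the rule had used the same samples. Under TMM the median member was higher by 0.06 in wounded than in unwounded samples on the log2 scale, while under total counts it was lower, at -0.02; 481 members were higher under TMM and 236 under total counts. The TMM factors were 0.946 to 0.987 in wounded libraries, against 1.01 to 1.045 in unwounded libraries. The 2629 abundant genes together took 69.9% to 71.5% of the counts in wounded libraries, against 73.9% to 74.8% in unwounded libraries; the part of this shift in the members' levels was not tested.

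Under DESeq2 size factors 386 of the 589 members kept a ratio within 1.2, and all 386 did so under TMM too, where 401 did. The gene with the lowest ratio over the 3 scalings together was 2-Cys Prx B, at 1.09 by total counts, 1.09 by TMM and 1.097 by DESeq2 factors. MPPBETA followed, with 1.09, 1.09 and 1.098. The ratio of PTAC4 was 1.06 by total counts and 1.11 under both other scalings. For EIF4A-III, a subunit of the exon junction complex, it was 1.12 by total counts and 1.07 by TMM.

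Gene structure, which the rule did not use, overlapped widely between members and other genes. Members had a median of 8 exons, with quartiles of 5 and 13, against a median of 6 for the other abundant genes, with quartiles of 3 and 11, and of 4 for all 27443 protein-coding genes with an annotated start. Genes with 1 exon made up 1.87% of members, 6.68% of the other abundant genes and 20.5% of all. The summed exon length had a median of 1819 bases in members and 1956 bases in the other abundant genes. An annotated gene on the opposite strand overlapped 31.7% of members and 28.2% of the other abundant genes; whether counting used the strand is not given in the sources used here, so reads of such pairs may not be separated.

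In the 250 bases upstream of the start, TGGGCC was present on either strand in 28.2% of members, in 20.4% of the other abundant genes and in 13.7% of all protein-coding genes. TGGGCC and TGGGCT are known in Arabidopsis as site II elements, found in promoters of genes for ribosomal and mitochondrial proteins. Either of them was present in 33.8% of members, 27.1% of the other abundant genes and 19.2% of all genes. By list the count was 14 of 28 members for plastid ribosomal proteins, 5 of 9 for the 20S core, 3 of 8 for the 19S regulator, 6 of 16 for plastid proteases and 4 of 12 for the vacuolar proton ATPase. TATAAA or TATATA on the gene's strand between 50 and 16 bases before the start, where TATA boxes lie, was present in 9.34% of members, 10.9% of the other abundant genes and 14.9% of all. AACCCTA was present in 6.79% of members, 6.14% of the other abundant genes and 6.56% of all, and CACGTG, the core of the G-box, in 6.62%, 9.28% and 6.49%. A match is a stretch of letters, and binding was not measured.

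Reference genes in common use were compared with the set through a list of 43 genes: 22 classic ones for actins, tubulins, ubiquitins, elongation factor 1-alpha, initiation factor 4A, GAPDH and cyclophilins, and 21 proposed from genome-wide surveys. Of the 43, 25 were abundant and 1 was a member, ACT8, an actin, with a ratio of 1.195. ACT8 had 125.1, 110.7 and 132 CPM in isi1-2 wounded leaves and 124.6, 129 and 119 CPM in isi1-2 unwounded leaves, against 116, 119 and 112 CPM in WT wounded leaves and 118, 113 and 121 CPM in WT unwounded leaves. Its groups overlapped, and it ranked 561 of the 2629 abundant genes by ratio. Scaled by TMM or by DESeq2 factors its ratio was 1.22, outside the bound, and no abundant gene of the list was then within it.

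The median ratio over the reference genes with counts was 1.32, and it was 1.40 for the classic genes and 1.28 for the genome-wide ones. The genome-wide genes had a median level of 27.8 CPM, and counting error was not taken out of these ratios. A ratio within 1.2 was found for 5 genes. Besides ACT8 they were AT2G32170 (1.14), HBT (1.18), a subunit of the anaphase-promoting complex, RHIP1 (1.19) and MON1 (1.1997), a factor in vacuolar traffic, whose means of 27.8 to 40.5 CPM lay under the level bound. PP2AA3, a phosphatase subunit, missed both bounds by little, with a ratio of 1.21 and a lowest sample of 49.9 CPM. The reference genes AT1G58050 and AT3G32260 had 0 counts in all 12 samples.

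On wounding, 20 of the 40 tested reference genes outside the set were called in isi1-2, 12 higher and 8 lower, and 19 were called in WT, 14 higher and 5 lower, against 50.9% and 46.9% of all genes tested. Both genotypes called 16 of them, with the same direction in all 16. The highest ratio of the list was that of UBQ11, a polyubiquitin gene. UBQ11 had 780, 953 and 856 CPM in isi1-2 wounded leaves and 245, 210.1 and 205 CPM in isi1-2 unwounded leaves. The WT values were 559, 966 and 873 CPM in wounded leaves and 209.8, 215 and 221 CPM in unwounded leaves. Wounded and unwounded samples did not overlap, and edgeR gave log2 changes of 2.06 ± 0.18 (SE, adjusted p = 3.14e-06) in isi1-2 and 1.96 ± 0.17 (SE, adjusted p = 5.69e-06) in WT.

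UBQ10, a polyubiquitin gene often used as a reference, had 1211, 1388 and 1315 CPM in isi1-2 wounded leaves and 906, 796 and 740.3 CPM in isi1-2 unwounded leaves. In WT it had 1178, 923 and 945 CPM in wounded leaves and 773, 842 and 908 CPM in unwounded leaves. All wounded samples lay above all unwounded samples, with log2 changes of 0.77 ± 0.10 (SE, edgeR adjusted p = 1.39e-05) in isi1-2 and 0.34 ± 0.10 (SE, edgeR adjusted p = 0.0103) in WT. The WT change was 0.28 without WT unwounded replicate 1 (edgeR adjusted p = 0.05003) and 0.22 without WT wounded replicate 1 (edgeR adjusted p = 0.0426), and adjusted p ran from 0.00325 to 0.05003 over the alternatives. The test did not call a difference between these changes of UBQ10, which was 0.43 ± 0.14 (SE, edgeR adjusted p = 0.284). Polyubiquitin genes carry repeats of nearly the same sequence, so the split of reads among UBQ10, UBQ11 and their relatives is uncertain.

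ACT2, another actin gene, had 356, 411 and 462 CPM in isi1-2 wounded leaves and 341, 331 and 318 CPM in isi1-2 unwounded leaves, against 374, 428 and 392 CPM in WT wounded leaves and 266, 308 and 286 CPM in WT unwounded leaves. It rose in both genotypes, by 0.40 ± 0.08 in isi1-2 and 0.55 ± 0.08 in WT on the log2 scale (SE, edgeR adjusted p = 0.000613 and 3.95e-05). ACT7 rose in WT (0.32 ± 0.06, SE, edgeR adjusted p = 0.000458), and in isi1-2 its change was 0.06 ± 0.06 (SE, edgeR adjusted p = 0.470). The difference between these changes of ACT7 was -0.26 ± 0.09 (SE, edgeR adjusted p = 0.284).

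Other reference genes went the other way, the glycolytic ones among them. GAPC2, a cytosolic glyceraldehyde-3-phosphate dehydrogenase, had 475, 456 and 494 CPM in isi1-2 wounded leaves and 705, 724 and 759 CPM in isi1-2 unwounded leaves. The WT values were 532, 527 and 534 CPM in wounded leaves and 777, 713 and 767 CPM in unwounded leaves. All wounded samples lay below all unwounded ones, with log2 changes of -0.53 ± 0.05 in isi1-2 and -0.43 ± 0.05 in WT (SE, edgeR adjusted p = 6.68e-07 and 8.31e-06). GAPC1 fell too, by 0.53 in isi1-2 and by 0.28 in WT on the log2 scale (edgeR adjusted p = 1.54e-06 and 0.00106). TUB6, the elongation factor gene AT1G07930 and AT4G33380, a gene from genome-wide surveys, were also called lower in both genotypes. Their log2 changes in isi1-2 and WT were -0.21 and -0.19 for TUB6, -0.33 and -0.20 for AT1G07930, and -0.18 and -0.29 for AT4G33380.

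Among genes from genome-wide surveys, UBC9, a ubiquitin-conjugating enzyme, had 90.8, 90.5 and 88.4 CPM in isi1-2 wounded leaves and 59.8, 54.2 and 58.9 CPM in isi1-2 unwounded leaves. In WT it had 77.6, 85.2 and 83.9 CPM in wounded leaves and 56.7, 55.9 and 56.6 CPM in unwounded leaves. It rose by 0.73 ± 0.06 in isi1-2 and by 0.62 ± 0.06 in WT on the log2 scale (SE, edgeR adjusted p = 3.46e-08 and 3.28e-07). UBC10 and AP2M, a clathrin adaptor subunit, rose in both genotypes as well, by 0.28 to 0.34. AT2G32170, the reference gene with the lowest ratio, was called higher on wounding in isi1-2 (0.18 ± 0.06, SE, edgeR adjusted p = 0.0262), and PP2AA3 was called higher in WT (0.17 ± 0.06, SE, edgeR adjusted p = 0.0263). Both calls rest on the scaling: by total counts the changes were 0.09 (edgeR adjusted p = 0.243) and 0.10 (edgeR adjusted p = 0.201). Each was also lost without single replicates, for AT2G32170 without isi1-2 unwounded replicate 1 or 2 or isi1-2 wounded replicate 1 or 2, and for PP2AA3 without WT unwounded replicate 1 or WT wounded replicate 1 or 3. The test did not call MON1, RHIP1, HBT, TIP41L or YLS8 in either genotype.

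Between isi1-2 and WT the same test called 0 of the 40 reference genes in unwounded plants and 0 in wounded plants, where 3 and 7 had an unadjusted p below 0.05. DESeq2 called 0 and 1. The 1 gene was UBQ10, higher in isi1-2 by 0.40 in wounded plants on the log2 scale (DESeq2 adjusted p = 0.00937). In edgeR the value was 0.39 ± 0.10 (SE, edgeR adjusted p = 0.0525), close to the threshold. Without WT wounded replicate 1 it was 0.52 (edgeR adjusted p = 0.00152).

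**Figure D5:**
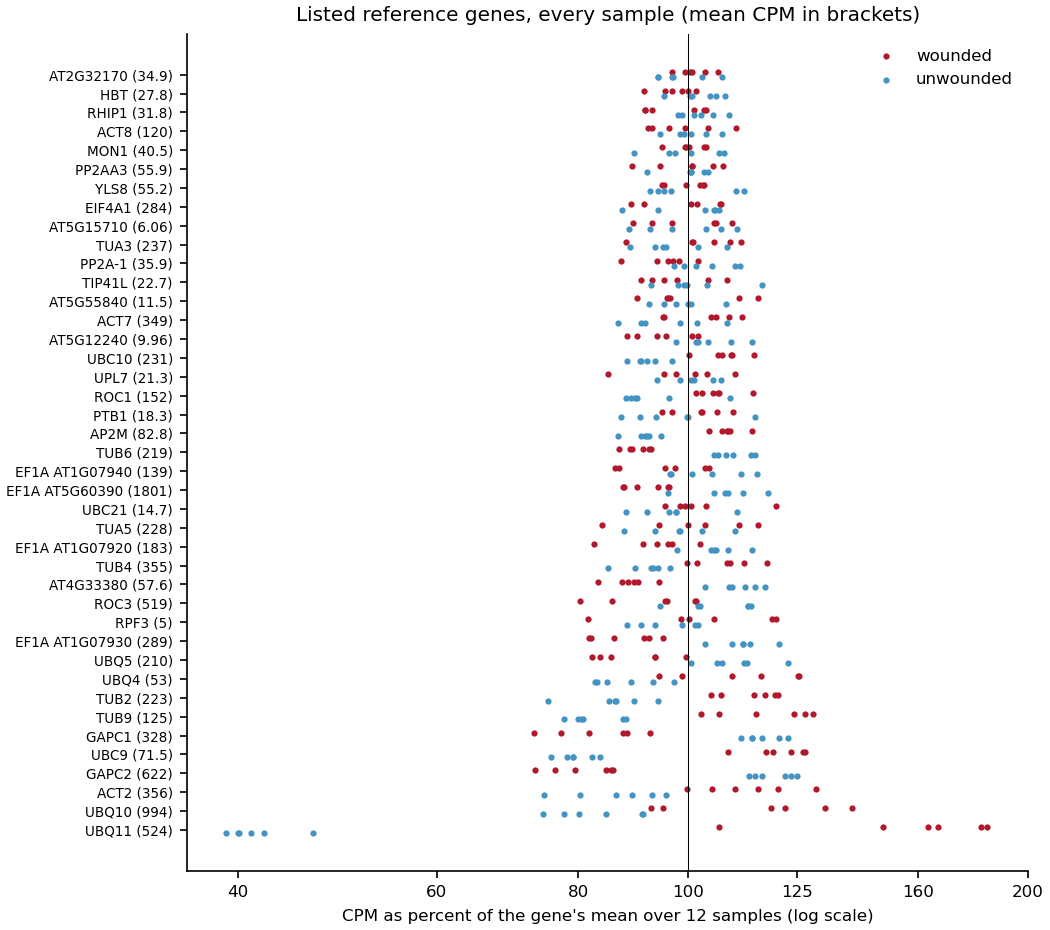
CPM of each listed reference gene with counts, as a percent of its mean over 12 samples (x axis, log scale), ordered by the ratio of highest to lowest CPM with the lowest at the top and with the mean CPM in brackets. Red points are the 6 wounded samples and blue points the 6 unwounded samples; they separate widely for UBQ11, GAPC2 and UBC9 and intermix for AT2G32170, HBT and RHIP1.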

How the data were processed

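Each of the 12 samples, 3 in each of 4 groups named by their titles, has 1 table of raw counts deposited by the authors, with whole reads per gene and no normalization. Per the submitters' processing notes, cutadapt 1.8, STAR 2.5.3a, HTSeq 0.9.1 and the build TAIR10 were used; the use of strand is not given in the sources used here. The 5 summary lines were dropped and CPM was computed from the rest. RefSeq TAIR10.1 gave names, exons and upstream sequence; its nuclear chromosomes have the lengths of TAIR10. Total counts were 23307790 to 30747778.

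Differential expression was tested with edgeR 4.0.16 in R 4.3.3 (quasi-likelihood with robust estimation, TMM, filterByExpr, 18698 genes, 1 coefficient per group over 12 samples, Benjamini-Hochberg adjustment, threshold 0.05), with DESeq2 1.42.0 as an alternative. The code was tested on simulated counts with far fewer changed genes, all in wounded WT, than wounding called here. That test does not cover how the calls move with scaling. The members, gene lists and reference genes were chosen with earlier results of these data known. Genes named in the text were the 20 steadiest, the 5 with the highest mean CPM, those next to each bound, the 3 steadiest of each class, the reference genes and ISI1; others were named after their values were seen. Upstream windows were read from the genome, since no promoter table was at hand.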

Additional observations from a re-analysis of the deposited data

How the results depend on the processing

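The set depends on its bounds. The number of steady genes was 589; it was 593 with TMM-scaled CPM and 578 with DESeq2 factors, of which 398 and 383 were among the 589. It was 969 with a level of 20 CPM, 293 with 100 CPM, 265 with a ratio bound lower by 0.05 and 907 with one higher by 0.05. It was 954 over the 6 isi1-2 samples, 1052 over the 6 WT samples, 1740 over the 6 wounded samples and 2134 over the 6 unwounded samples, where fewer samples can only widen it, and 610 to 664 with 1 library left out. Leaving out 1 replicate of the groups compared gave 8305 to 8819 genes called for wounding in isi1-2, 7536 to 8848 in WT, 6 to 15 for genotype in unwounded plants (24 with all samples) and 104 to 940 in wounded plants (446 with all samples); the 940 came without WT wounded replicate 1 and the 104 without WT wounded replicate 3, and the cause was not tested. For genotype in unwounded plants 38 genes were called with no filter on low counts and 91 with DESeq2; in wounded plants DESeq2 called 710. The correlation of deviations was -0.03 to 0.18 (median 0.05) over 18 pairs of samples with the same replicate number. Over 36 pairs with different numbers it was -0.19 to 0.15 (median -0.03). These overlapping ranges do not settle whether the number pairs the samples. With the replicate block 66 and 703 genes were called for genotype, against 24 and 446 without it. Scaling by total counts changed the wounding calls in isi1-2 to 3643 higher and 6014 lower, from 4695 and 4813, and in WT to 3624 and 5414, from 4460 and 4304. Reference genes called were 16 to 19 on wounding in isi1-2 and 17 to 19 in WT with 1 replicate left out, and 0 and 0 to 2 for genotype; DESeq2 called 1 in wounded plants. PP2AA3, ROC1 and RPF3 lost their WT call under total-count scaling. Counting error was at most 2.71% for members. It was larger for weakly expressed reference genes. For AT5G15710 it would give as much as the coefficient of variation, 7.93%, and for RPF3 8.72%, against 11.2%. The reads carry no molecular identifiers.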
